A study of Mus musculus with 10 samples.

Results

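The 39 genes described here are the tumour suppressor gene Trp53 with 17 genes known as targets or partners of its product, and 21 genes of the DNA damage checkpoint and of DNA repair. They were chosen by symbol from a list written with earlier results of these data known, and each matched 1 of the 38215 genes in the deposited table. RNA was measured in GFP+ splenocytes of mice with secondary transplant acute myeloid leukaemia (AML), which carried AML1-ETO and Nras G12D. All recipients received leukaemia made by transducing lineage-depleted bone marrow cells with the retrovirus MSCV-IRES-GFP, which expressed both oncogenes, and grown first in Rag2-/-γc-/- mice. The recipients compared were 5 immunocompetent C57BL/6J mice (libraries 1, 3, 4, 5 and 6) and 5 Rag2-/-γc-/- mice (libraries 7 to 11), which lack T, B and NK cells. The labels name no age, sex or primary leukaemia of origin for a recipient. Recipients may share a leukaemia, and every p-value here reflects the spread between these 10 animals alone.

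The protein p53 is a transcription factor that is held at a low level by the ubiquitin ligase Mdm2 and is released from it when DNA is damaged or an oncogene drives the cell. It then activates genes that stop the cell cycle, repair DNA or start cell death, and Mdm2 itself, which closes a feedback loop. Damage is sensed by the kinases Atm and Atr, which act through Chek2 and Chek1, and is repaired by separate pathways for broken strands, crosslinks, mismatches and damaged bases. Many repair genes are transcribed most strongly in dividing cells, under E2F factors.

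Promoter windows of RefSeq (GRCm38.p6), from 250 bases before to 50 bases after a gene's start, were at hand for 32 of the 39 genes. The p53 half-site consensus, a decamer of 10 bases, is a part of the pattern that p53 is known to bind. It was present in windows of 8 of 16 p53 genes (9 of 23 windows, 39.1%). It was in 1 of 16 windows of checkpoint and repair genes and in 8.36% of all 32851 windows. The search did not require a second half-site beside the first. The 4 stretches below are shown because they belong to genes whose values carry the account of the p53 arm, among them Ccng1, the 1 member past the threshold in the main test. Capitals mark the decamer, and each stretch reads 5′ to 3′ on the gene's strand.
Ccng1, chr11:40755437-40755496, minus strand: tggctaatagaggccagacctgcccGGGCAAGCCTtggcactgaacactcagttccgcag
Mdm2, chr10:117710910-117710969, minus strand: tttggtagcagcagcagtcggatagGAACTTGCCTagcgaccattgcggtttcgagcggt
Cdkn1a, chr17:29090903-29090962, plus strand: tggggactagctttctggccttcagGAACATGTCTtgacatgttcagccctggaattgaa
Sesn1, chr10:41887241-41887300, plus strand: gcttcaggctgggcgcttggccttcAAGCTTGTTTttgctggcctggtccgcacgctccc

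An E2F-type site, searched on both strands as TTTCCCGC, TTTGGCGC, TTTGCCGC or TTTCGCGC, was in windows of 4 of 16 checkpoint and repair genes (25%), 1 of 16 p53 genes and 2.26% of all windows. The p53 gene was Cdkn2a. The 3 stretches below are shown because these repair genes had their lowest values in the same 3 libraries. Brca2, the other repair gene with a match, did not. Atm, Chek1, Brca1, Mre11a, Xrcc1, Parp1, Ung and Fanca had their lowest values in those libraries without a match. Capitals mark the site, which is TTTCCCGC on one strand or the other in all 3. A match is a description of the letters, and binding was not measured.
Chek2, chr5:110839806-110839863, plus strand: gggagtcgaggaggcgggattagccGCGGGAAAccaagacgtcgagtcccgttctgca
Xrcc6, chr15:82016313-82016340, plus strand: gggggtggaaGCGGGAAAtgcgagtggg
Msh6, chr17:87975055-87975082, plus strand: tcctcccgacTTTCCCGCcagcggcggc

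Libraries held 28157745 to 62461126 expected counts, and 13966 genes were tested. Values are in CPM, which gives a gene's counts relative to the library's total after TMM scaling. On the first principal component of all tested genes (46.4% of the variance) Rag2-/-γc-/- libraries 7, 8 and 9 lay at 49.6 to 61.6, libraries 10 and 11 at -4.9 and 8.7, and the C57BL/6J libraries at -57.5 to -20.2. The counts of calls, and the genes whose values turn on it, are therefore also given without libraries 10 and 11, and without libraries 7, 8 and 9. This split was chosen from these same values, and no label names it. Leaving out libraries 10 and 11, nearest the C57BL/6J libraries on this component, favours larger differences. The p-values without some libraries therefore describe those subsets and are not independent tests. The 10 myeloid and dendritic genes examined summed to 5338 to 7756 CPM per library. Of 12 T cell genes, 8 averaged under 1 CPM. Their sum was 63.7 to 116 CPM with C57BL/6J recipients and 20.6 to 46.8 CPM with Rag2-/-γc-/- recipients, mostly from Cd8a, and Cd2, Cd28, Trac and Trbc2 were at 0 in all 5 of the latter. Summed B cell genes (8) were at 93.6 to 319 and 96.7 to 209 CPM. Of the 5 of them that were tested, 4 were higher with C57BL/6J recipients and 1 was lower. This sum therefore does not show that each B cell gene was at a like level. In bulk RNA, fewer cells of a type and less RNA per cell cannot be told apart.

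For most p53 and repair genes no difference between the recipients was detected beyond the spread within groups. A p that missed the threshold does not show that a gene's levels were alike. Of the 37 members with enough counts to be tested, 1 was higher in C57BL/6J recipients and none was lower (quasi-likelihood test of edgeR at a threshold of 0.05, with p adjusted over all tested genes). Of all tested genes 7.79% passed, 3.32% higher and 4.47% lower. The member that rose was Ccng1, a cyclin gene that p53 activates. The groups did not overlap in 0 of the 37, against 8.5% of all tested genes. At an unadjusted p under 0.05 there were 7 members (18.9%), against 25.7% of all tested genes. They were 5 of 16 p53 members (31.2%) and 2 of 21 checkpoint and repair genes (9.52%). DESeq2 called 3 members higher (Ccng1, Phlda3 and Fanca) and 1 lower (Sesn1), where it called 5.75% of all tested genes higher and 8.27% lower. In limma-voom 2 were higher (3.45% of all tested genes). With sample quality weights limma-voom called 20 higher and 5 lower, and 23.7% of all tested genes higher and 23% lower.

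Trp53 itself was abundant, and its level separated the Rag2-/-γc-/- libraries from each other rather than the recipients. It was at 142, 99.4, 104, 119 and 112 CPM in C57BL/6J libraries 1, 3, 4, 5 and 6. In Rag2-/-γc-/- libraries 7 to 11 it was at 68.8, 66.3, 73.3, 135 and 126 CPM. Libraries 7, 8 and 9 were thus the 3 lowest of all, and 10 and 11 lay inside the C57BL/6J range. The log2 fold change of Trp53 (C57BL/6J minus Rag2-/-γc-/-) was 0.30 ± 0.21 (SE; 95% interval -0.17 to 0.76; edgeR adjusted p = 0.39). Without libraries 10 and 11 it was 0.73 (edgeR adjusted p = 0.00173), and without libraries 7, 8 and 9 it was -0.17 (adjusted p = 0.732).

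Mdm2, the inhibitor and target of p53, had the smallest standard error of the 37 tested members. It was at 103, 111, 111, 109 and 106 CPM in C57BL/6J libraries 1, 3, 4, 5 and 6, and at 123, 110, 112, 96.3 and 107 CPM in Rag2-/-γc-/- libraries 7 to 11. The groups overlapped, and the log2 fold change was -0.02 ± 0.08 (SE), with a 95% interval of -0.20 to 0.15 (edgeR adjusted p = 0.872). Cdkn2a, which encodes the Mdm2 antagonist Arf and the kinase inhibitor p16 from shared exons, had too few counts to be tested. It held 56 expected counts over the 5 C57BL/6J libraries and 27 over the 5 Rag2-/-γc-/- libraries, with at most 0.827 CPM in any of them. The table does not separate its 2 products.

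Cdkn1a encodes the cell cycle inhibitor p21, the best known target of p53. It was at 81.9, 58.7, 41.4, 32.2 and 54.6 CPM in C57BL/6J libraries 1, 3, 4, 5 and 6, and at 106, 66.0, 54.3, 49.3 and 66.6 CPM in Rag2-/-γc-/- libraries 7 to 11. The highest value of all was in Rag2-/-γc-/- library 7 and the next in C57BL/6J library 1, and the groups overlapped. The log2 fold change was -0.35 ± 0.26 (SE; 95% interval -0.92 to 0.22; edgeR adjusted p = 0.402). It was not past the threshold in any of the 20 alternatives.

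Ccng1, cyclin G1, recruits a phosphatase to Mdm2. It was at 222, 239, 185, 176 and 248 CPM in C57BL/6J libraries 1, 3, 4, 5 and 6, and at 131, 132, 119, 169 and 179 CPM in Rag2-/-γc-/- libraries 7 to 11. Only Rag2-/-γc-/- library 11 reached into the C57BL/6J range, above library 5. Ccng1 rose by 0.55 ± 0.14 on the log2 scale (SE; 95% interval 0.24 to 0.86; edgeR adjusted p = 0.0361), which is 1.47-fold. The call was lost without any 1 of C57BL/6J libraries 1, 3 and 6 and Rag2-/-γc-/- libraries 7, 8 and 9 (edgeR adjusted p up to 0.0957). It was also lost without 7, 8 and 9 together (log2 fold change 0.30, edgeR adjusted p = 0.483). Summed T cell and NK cell genes were also higher in C57BL/6J libraries (16.6 ± 3.09 against 7.17 ± 3.18 CPM for the 7 NK cell genes, SD, n = 5; exact permutation adjusted p = 0.0357 for each list), and their part in the difference was not tested.

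**Figure D1:**
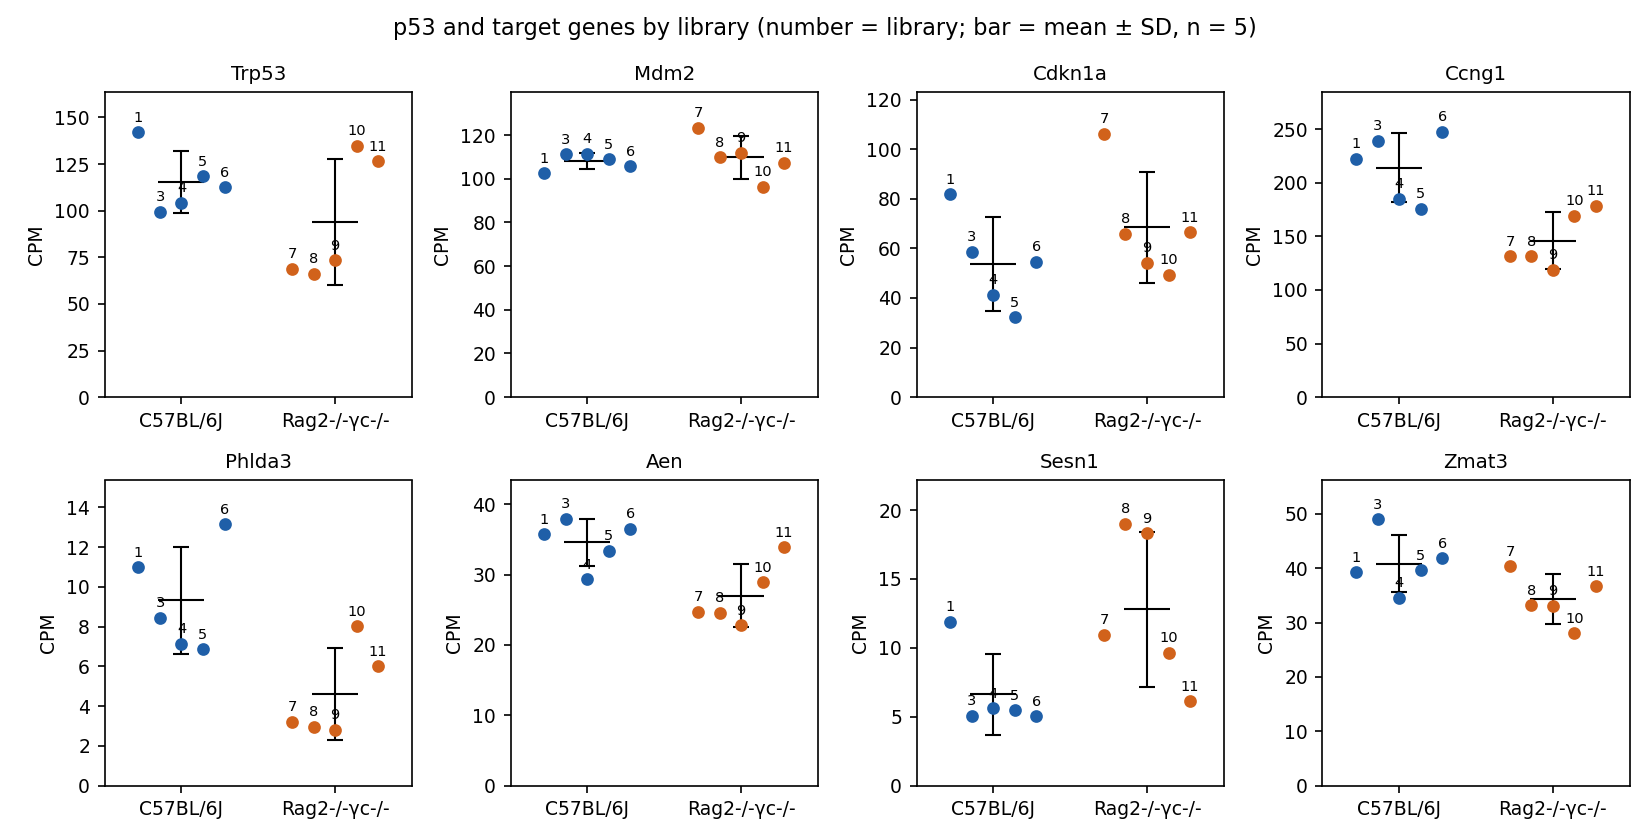
Levels of 8 p53 pathway genes in CPM (vertical axes from 0), with C57BL/6J libraries in blue and Rag2-/-γc-/- libraries in orange; each point is 1 library, marked with its number, and bars show mean ± SD (n = 5). Mdm2 lies between 96.3 and 123 CPM in all 10 libraries, while Trp53, Phlda3 and Ccng1 are lowest in Rag2-/-γc-/- libraries 7, 8 and 9.

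Further p53 targets had fold changes of both signs, none past the threshold in edgeR with all libraries, though DESeq2 called Phlda3 and Sesn1 and limma-voom called Phlda3. The genes with the next smallest p-values are given here, and were picked after their values were seen. Phlda3, which restrains the kinase Akt, was at 11, 8.44, 7.13, 6.85 and 13.2 CPM in C57BL/6J libraries 1, 3, 4, 5 and 6, and at 3.22, 2.96, 2.82, 8 and 5.99 CPM in Rag2-/-γc-/- libraries 7 to 11. Its log2 fold change was 1.02 ± 0.32 (SE; edgeR adjusted p = 0.0752), 1.63 without libraries 10 and 11 (adjusted p = 0.00104) and 0.42 without 7, 8 and 9 (adjusted p = 0.643). Sesn1, a sestrin that restrains the growth kinase mTORC1, went the other way, at 11.9, 5.08, 5.63, 5.46 and 5.06 CPM in C57BL/6J and 11, 19.0, 18.3, 9.64 and 6.15 CPM in Rag2-/-γc-/- libraries. C57BL/6J library 1 lay apart from the other 4, and without it Sesn1 was past the threshold (log2 fold change -1.27 against -0.95 with all; edgeR adjusted p = 0.0331 against 0.11). Aen, an exonuclease gene of apoptosis, spanned 29.3 to 38.0 CPM for C57BL/6J and 22.8 to 33.9 CPM for Rag2-/-γc-/- libraries (log2 fold change 0.36 ± 0.12, SE; edgeR adjusted p = 0.103). Ercc5, an endonuclease of nucleotide excision repair, was at 21.4 to 29.1 against 25.6 to 39.3 CPM (-0.38 ± 0.15, SE; edgeR adjusted p = 0.14). Without libraries 7, 8 and 9, the log2 fold changes of Sesn1, Aen and Ercc5 were -0.25, 0.14 and -0.04, none past the threshold in edgeR, and without 10 and 11 they were -1.28, 0.53 and -0.57, all past it.

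The remaining p53 members had larger p-values or too few counts to be tested. Zmat3, an RNA-binding protein gene, spanned 34.6 to 49.1 CPM for C57BL/6J and 28.0 to 40.4 CPM for Rag2-/-γc-/- libraries (log2 fold change 0.25 ± 0.12, SE; edgeR adjusted p = 0.213). The antiproliferative gene Btg2 had means of 137 ± 19.0 and 139 ± 34.4 CPM (SD, n = 5), and Ei24, a membrane protein gene of the endoplasmic reticulum, 47.5 ± 3.25 and 49.5 ± 5.85 CPM. Polk, a DNA polymerase that copies past lesions, had 23.8 ± 3.04 and 20.7 ± 4.01 CPM. Dcxr, a sugar and carbonyl reductase gene, reached 33.4 to 37.4 CPM in Rag2-/-γc-/- libraries 7, 8 and 9 and 13.2 to 27.6 CPM in the other 7 libraries. The log2 fold change of Dcxr was -0.50 ± 0.30 (SE; edgeR adjusted p = 0.309). It was -0.87 without libraries 10 and 11 and 0.36 without 7, 8 and 9 (edgeR adjusted p = 0.00861 and 0.695). Psrc1, a spindle-associated gene, was at 0.899 to 1.88 CPM, the polo-like kinase gene Plk2 at 0.855 to 3.70 CPM and the cytokine gene Gdf15 at 0.0252 to 1.62 CPM. Perp, a desmosome gene of epithelia, had 8 expected counts in C57BL/6J and 13 in Rag2-/-γc-/- libraries and was not tested. In all, 7 of the 16 tested p53 members had a log2 fold change above 0 and 9 below, with a median of -0.02 (0.0037 over all tested genes).

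Most checkpoint and repair genes shared an order of libraries, which ran within the Rag2-/-γc-/- group rather than between the groups. None of the 21 passed the threshold in edgeR (2 had an unadjusted p under 0.05). DESeq2 called 1 higher, limma-voom with sample quality weights 14 higher and 2 lower. Yet 17 of 21 had a log2 fold change above 0, with a median of 0.26, against 7047 of all 13966 tested genes. Without libraries 7, 8 and 9, 5 of the 21 were above 0. In 14 of the 21, Rag2-/-γc-/- libraries 7, 8 and 9 were the 3 lowest of all 10, against 16.5% of all tested genes and 5 of 16 p53 members. In 13 of the 21 these libraries also stood in the order 7, 8, 9 from the lowest up, against 6.67% of all tested genes. Among the 171 other tested genes of these pathways, described below, these libraries were the 3 lowest in 61 and the 3 highest in 22. In 33 of the 171 they were lowest in that order. Of all tested genes with these 3 lowest, 931 of 2305 had that order. Among the 14 repair genes the exception was Xrcc1.

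**Figure D2:**
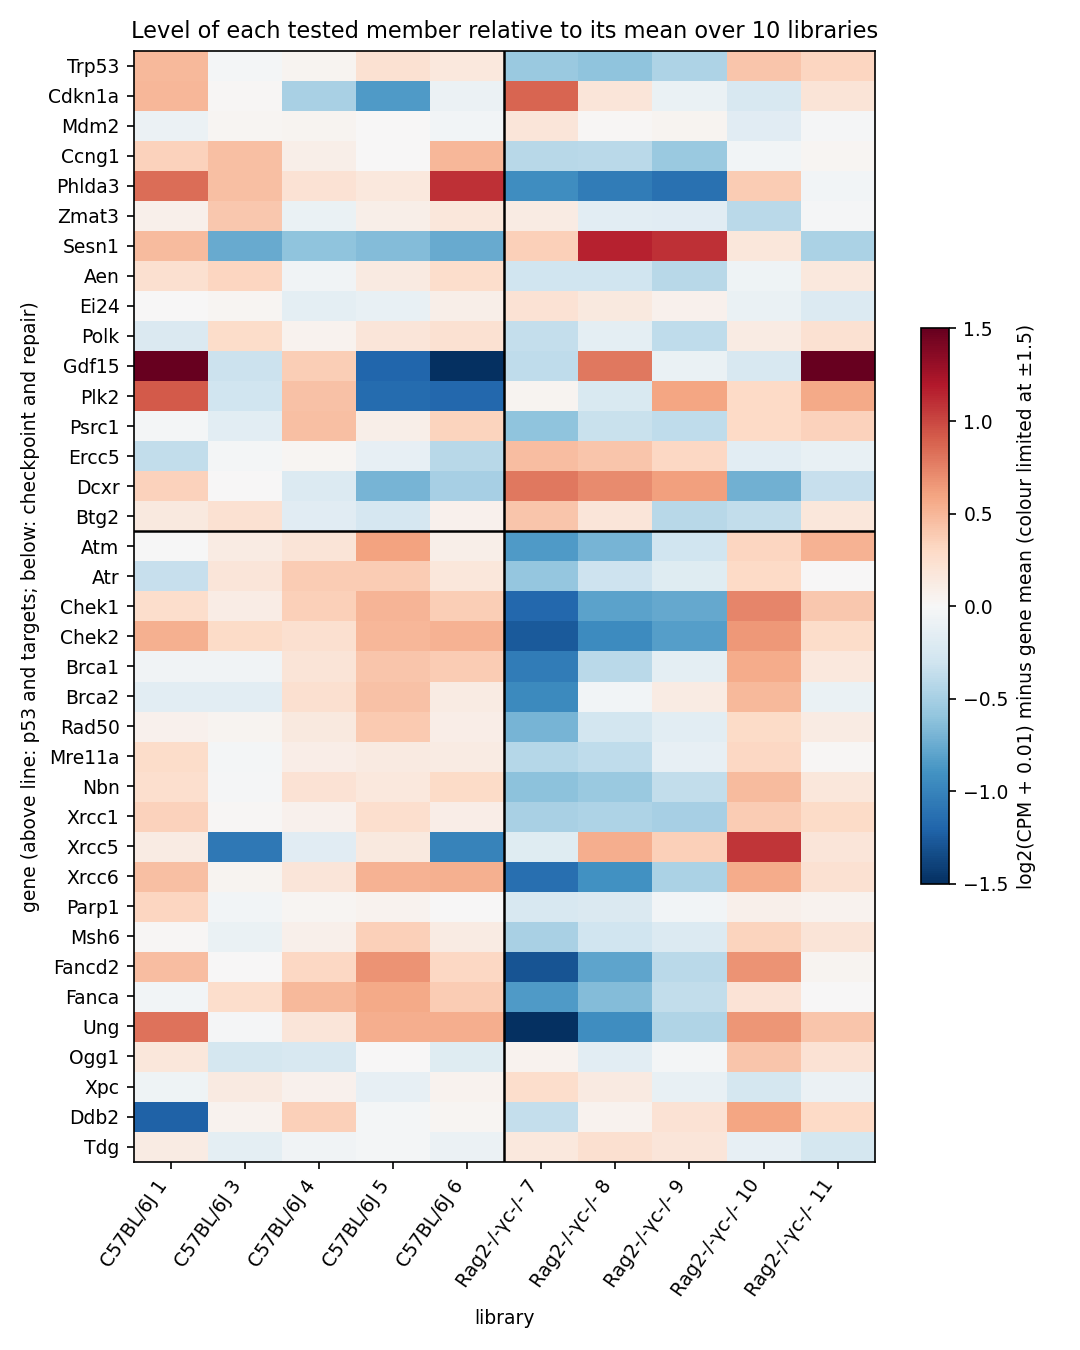
Each row is 1 of the 37 tested members and each column 1 library; colour gives log2(CPM + 0.01) minus the gene's mean over the 10 libraries, red higher and blue lower, limited at ±1.5. Below the horizontal line, the columns of Rag2-/-γc-/- libraries 7, 8 and 9 are blue for most checkpoint and repair genes, while those of libraries 10 and 11 are mostly red like the C57BL/6J columns.

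Atm encodes the kinase that responds to double-strand breaks. It was at 21.9, 24.1, 25.2, 33.5 and 23.5 CPM in C57BL/6J libraries 1, 3, 4, 5 and 6, and at 12.3, 13.6, 18, 27.6 and 31.6 CPM in Rag2-/-γc-/- libraries 7 to 11. Libraries 7, 8 and 9 were below all others, and 10 and 11 were above 4 of the 5 C57BL/6J libraries. The log2 fold change of Atm was 0.32 ± 0.25 (SE; 95% interval -0.24 to 0.87; edgeR adjusted p = 0.437), 0.82 without libraries 10 and 11 (adjusted p = 0.00543) and -0.20 without 7, 8 and 9 (adjusted p = 0.729). Atr, the kinase that responds to stalled replication, ranged over 23.7 to 39.3 CPM with C57BL/6J recipients and 20.1 to 37.0 CPM with Rag2-/-γc-/- recipients. The downstream kinase genes, picked here for their spread after values were seen, showed the same order of libraries more widely. Chek1 was at 10.5 to 13.9 CPM in C57BL/6J libraries, and at 4.31, 5.58, 5.72, 16.2 and 12.9 CPM in Rag2-/-γc-/- libraries 7 to 11. Chek2 was at 8.98 to 11 CPM in C57BL/6J libraries, and at 3.17, 3.95, 4.27, 12.0 and 9.18 CPM in libraries 7 to 11. With all libraries their log2 fold changes were 0.46 ± 0.33 and 0.65 ± 0.33 (SE; edgeR adjusted p = 0.393 and 0.236).

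Genes of double-strand break repair gave values of the same form. Brca1, a central factor of homologous recombination, was at 26.8, 26.9, 31.8, 37.0 and 36.3 CPM in C57BL/6J libraries 1, 3, 4, 5 and 6, and at 13.4, 21, 25.1, 40.9 and 31.0 CPM in Rag2-/-γc-/- libraries 7 to 11. Library 10 was the highest of all and libraries 7, 8 and 9 the lowest. The log2 fold change of Brca1 was 0.27 ± 0.25 (SE; 95% interval -0.27 to 0.81; edgeR adjusted p = 0.49), 0.69 without libraries 10 and 11 (adjusted p = 0.0246) and -0.17 without 7, 8 and 9 (adjusted p = 0.792). Brca2, a mediator of homologous recombination, spanned 12.0 to 18.2 CPM for C57BL/6J and 6.95 to 18.8 CPM for Rag2-/-γc-/- libraries, with only library 7 below the C57BL/6J range. The 3 subunits of the break-sensing MRN complex, Mre11a, Rad50 and Nbn, had log2 fold changes of 0.22, 0.26 and 0.29, none past the threshold.

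The partners of the Ku heterodimer, which binds broken ends for end joining, had log2 fold changes of opposite sign, neither past the threshold. Xrcc6 (Ku70) was at 30.5, 22.9, 25.3, 31.9 and 32.2 CPM in C57BL/6J libraries 1, 3, 4, 5 and 6, and at 10.1, 11.8, 16, 32.7 and 26.1 CPM in Rag2-/-γc-/- libraries 7 to 11. Xrcc5 (Ku80) spanned 0.716 to 1.68 CPM for C57BL/6J and 1.34 to 3.20 CPM for Rag2-/-γc-/- libraries (log2 fold change -0.76 ± 0.32, SE; edgeR adjusted p = 0.163). Per kilobase of annotated exon, the mean level over all 10 libraries was 5.35 CPM for Xrcc6 and 0.649 CPM for Xrcc5. These members were picked after their values were seen.

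In crosslink repair, Fanca, of the Fanconi core complex, had the smallest p of the 21. It was at 37.1, 45.9, 53.4, 56.3 and 49.5 CPM in C57BL/6J libraries 1, 3, 4, 5 and 6, and at 21.2, 24.3, 29.6, 43.9 and 38.2 CPM in Rag2-/-γc-/- libraries 7 to 11. Its log2 fold change was 0.63 ± 0.20 (SE; edgeR adjusted p = 0.0773), and 10.5% of its annotated exon bases are shared with Zfp276 on the other strand. Fancd2, the protein that this complex modifies, was at 17.2 to 27.5 CPM in C57BL/6J libraries and at 6.98, 9.89, 13, 27.5 and 17.7 CPM in Rag2-/-γc-/- libraries 7 to 11. The mismatch sensor gene Msh6 was at 69.9 to 95.8 CPM and 53.5 to 94.7 CPM.

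Base excision repair genes were split. Ung, the uracil glycosylase gene, was at 18.1 to 32.5 CPM in C57BL/6J libraries and at 5.42, 9.65, 13.5, 29.2 and 24.5 CPM in Rag2-/-γc-/- libraries 7 to 11. Parp1, which marks strand breaks with poly(ADP-ribose), varied less, at 225 to 289 CPM and 195 to 244 CPM, and the scaffold gene Xrcc1 was at 22.7 to 28.5 and 15.9 to 29.1 CPM. In contrast, Tdg, a thymine DNA glycosylase gene, reached 82.5, 87.2 and 83.9 CPM in Rag2-/-γc-/- libraries 7, 8 and 9 and at 61.8 to 80.8 CPM in the other 7 libraries. Ogg1, the 8-oxoguanine glycosylase gene, spanned 9.40 to 12.8 CPM for C57BL/6J and 10.2 to 15.1 CPM for Rag2-/-γc-/- libraries.

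Both damage recognition genes of nucleotide excision repair stood outside the pattern as well. Xpc had means of 24.4 ± 1.75 and 24.1 ± 3.55 CPM (SD, n = 5), a log2 fold change of 0.01 ± 0.11 (SE; 95% interval -0.23 to 0.26). Ddb2 was at 6.81 CPM in C57BL/6J library 1, 15.5 to 20.2 CPM in the other 4 and 12.3 to 23.7 CPM in Rag2-/-γc-/- libraries. Of the annotated exon bases of Ddb2, 23.8% are shared with Acp2 on the other strand, and of those of Ogg1 10.6% with Camk1.

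**Figure D3:**
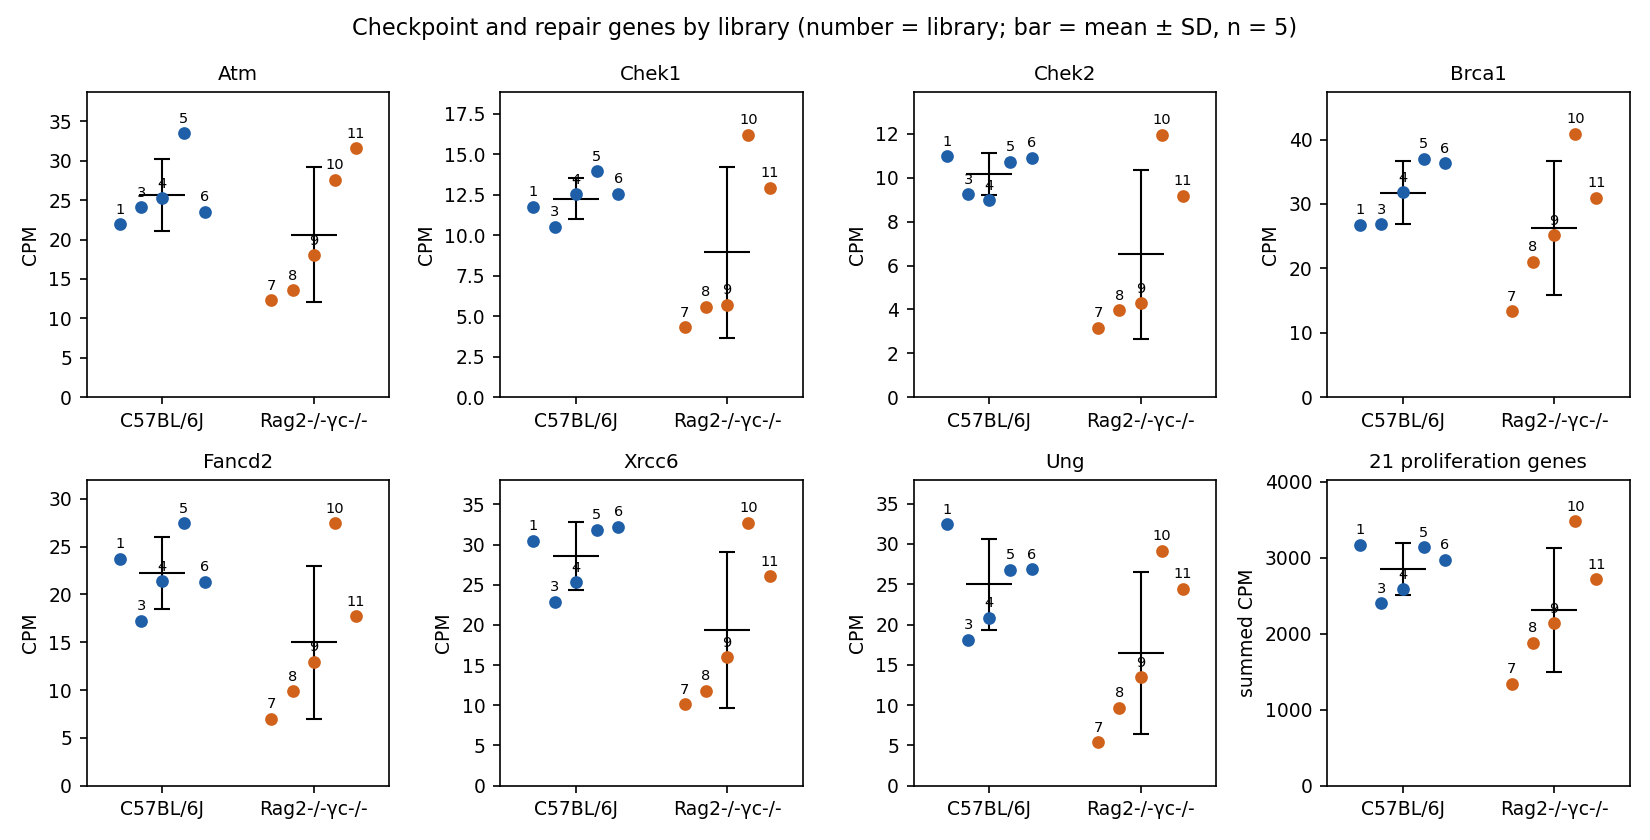
Levels of 7 checkpoint and repair genes in CPM and, at the lower right, the summed CPM of 21 proliferation genes (vertical axes from 0); points are libraries with their numbers, C57BL/6J in blue and Rag2-/-γc-/- in orange, and bars show mean ± SD (n = 5). Rag2-/-γc-/- libraries 7, 8 and 9 are the 3 lowest and in that order in all 8 plots. The 7 genes plotted come from the 13 of 21 that had this order, and genes without it are not shown.

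The sums of the proliferation, myeloid and dendritic, and T cell lists were also lowest in libraries 7, 8 and 9, in that order. The sum of 21 genes of replication and mitosis was 3172, 2402, 2584, 3133 and 2971 CPM in C57BL/6J libraries 1, 3, 4, 5 and 6, and 1339, 1882, 2139, 3477 and 2718 CPM in Rag2-/-γc-/- libraries 7 to 11. The difference in means, 2852 ± 343 against 2311 ± 819 CPM (SD, n = 5), was not past the threshold (exact permutation test, two-sided, adjusted p = 0.345). Libraries 7, 8 and 9 were the 3 lowest in 15 of these 21 genes, against 16.5% of all tested genes, and in the order 7, 8, 9 in 11 of them. Of the 21, 21 had a log2 fold change above 0 (median 0.38), against 7047 of all 13966 tested genes. Without libraries 7, 8 and 9, 8 of the 21 were above 0. The cyclin gene Ccne1, the 1 gene of the list past the threshold, rose from 26.6 ± 4.89 to 37.9 ± 2.64 CPM with no overlap (SD, n = 5; edgeR adjusted p = 0.0294). Without libraries 10 and 11 the means were 2839 and 1778 CPM (exact permutation adjusted p = 0.0402). Because libraries 7, 8 and 9 had the 3 lowest sums, this p was fixed by the choice of libraries and is no support for a difference. Without 7, 8 and 9 the means were 2889 and 3127 CPM (exact permutation adjusted p = 0.714). The myeloid and dendritic sum was 5338, 5622 and 5887 CPM in libraries 7, 8 and 9 and at least 6477 CPM in each other library. The sum of the T cell list was 20.6, 30.2 and 31.3 CPM in them and at least 44.9 CPM in each other library. It came mostly from Cd8a, and does not show T cells in the Rag2-/-γc-/- libraries. The part of these genes in the values of the repair genes was not tested. Libraries 7, 8 and 9 held 62461126, 42554069 and 28157745 expected counts, so depth fell in the order in which these values increased, and its part was not tested either.

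The result of the comparison depended on which Rag2-/-γc-/- libraries entered it. Without libraries 10 and 11, edgeR called 14 of 21 checkpoint and repair genes higher in C57BL/6J recipients and none lower, and 5 of 16 p53 members higher and 3 lower. Among all genes tested in that subset, 19.3% were higher and 17.4% lower. This subset was chosen from these same values, and keeps the 3 libraries that were the lowest of 10 in 14 of the 21 repair genes. Its calls therefore largely restate that order and are no separate support. The 5 higher p53 members were Trp53, Ccng1, Phlda3, Aen and Polk, and the 3 lower were Sesn1, Ercc5 and Dcxr. The log2 fold changes of Chek2, Ung, Chek1 and Xrcc6 were then 1.43, 1.41, 1.24 and 1.18. Without libraries 7, 8 and 9, which leaves 5 libraries against 2, edgeR called no member (2 of 38 had an unadjusted p under 0.05) and 1.88% of all genes tested. The median of the repair genes was 0.53 in the former subset and -0.10 in the latter. Of the 14 repair genes called without libraries 10 and 11, 12 had a log2 fold change of the opposite sign without 7, 8 and 9. The exceptions were Fanca (0.96 and 0.24) and Atr (0.53 and 0.02). Without 7, 8 and 9 the 12 values ran from -0.24 (Chek1) to -0.02 (Fancd2) and none was past the threshold, so a reversal was not shown.

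**Figure D4:**
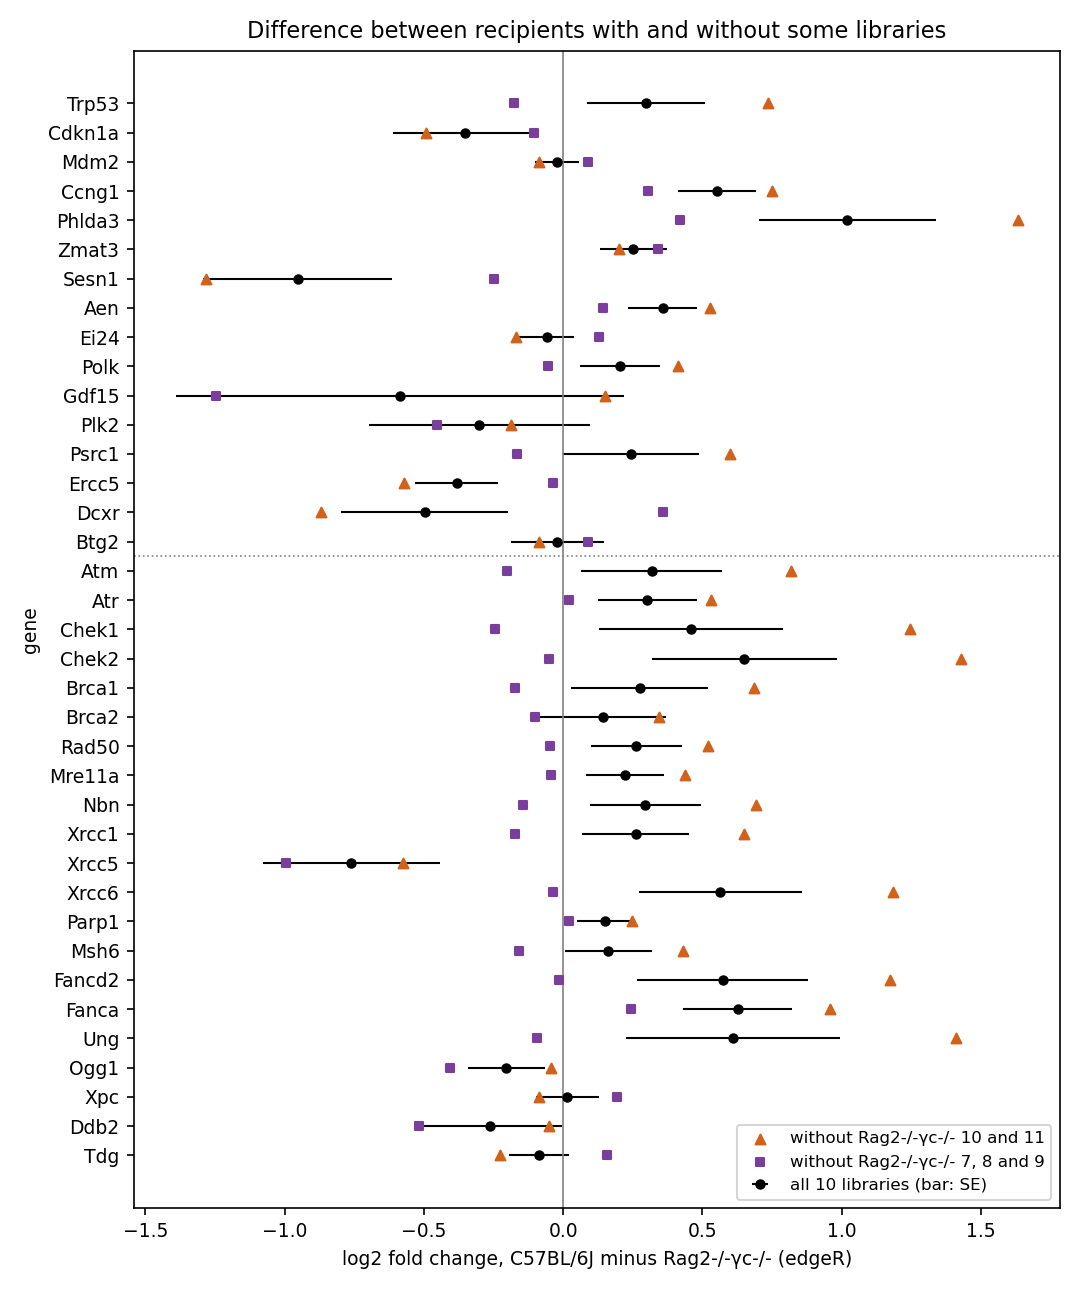
Horizontal axis, log2 fold change of C57BL/6J minus Rag2-/-γc-/- from edgeR; rows, the 37 tested members; circles with SE bars use all 10 libraries, triangles leave out Rag2-/-γc-/- libraries 10 and 11, squares leave out 7, 8 and 9. Below the dotted line most triangles lie to the right and most squares near 0; Chek2 moves from 1.43 to -0.05.

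Other genes of the same pathways were taken from 10 lists, with 171 of 178 matched genes tested. Of these 2 rose and 3 fell in C57BL/6J recipients, and all 5 belonged to the 35 tested genes listed as further p53 targets. The 5 are 2.92% of the 171 and 14.3% of the 35, against 7.79% of all tested genes. Regulation of the listed genes by p53 was not measured here. Pltp, a phospholipid transfer protein gene, rose from 112 ± 19.3 to 190 ± 25.6 CPM (SD, n = 5; log2 fold change 0.76 ± 0.13, SE; edgeR adjusted p = 0.00633). Cpt1c, a brain-type carnitine palmitoyltransferase gene, rose from 1.16 ± 0.181 to 2.52 ± 0.761 CPM (log2 fold change 1.13 ± 0.26, SE; edgeR adjusted p = 0.0243). C57BL/6J library 1, at 1.19 CPM, lay inside the Rag2-/-γc-/- range. The call was lost without any 1 of C57BL/6J libraries 3, 4, 5 and 6 and Rag2-/-γc-/- libraries 7 and 8 (edgeR adjusted p up to 0.0648). The growth arrest gene Gadd45g fell by 0.87 on the log2 scale, from 39.3 ± 9.63 to 21.5 ± 2.80 CPM (edgeR adjusted p = 0.00974), and stayed past the threshold in all 20 alternatives.

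The cell death gene Bbc3, which encodes Puma, fell by 0.52 on the log2 scale from 18.1 ± 1.51 to 12.7 ± 1.57 CPM (SD, n = 5; edgeR adjusted p = 0.0183), with no overlap between groups. The call was lost without C57BL/6J library 6 (adjusted p = 0.0502). Leaving out libraries 7, 8 and 9 together ended the calls of Pltp, Cpt1c and Bbc3 (edgeR adjusted p = 0.105, 0.271 and 0.124), while their log2 fold changes were then 0.73, 1.03 and -0.52, near the values with all libraries. The fifth gene, Trp53inp1, which acts with p53 in stress responses and was singled out after its values were seen, had the widest spread. It was at 12.3, 13.3, 7.92, 6.68 and 9.41 CPM in C57BL/6J libraries 1, 3, 4, 5 and 6, and at 104, 150, 103, 6.11 and 6.68 CPM in Rag2-/-γc-/- libraries 7 to 11. Libraries 7, 8 and 9 were above all others, and libraries 10 and 11 at or below the lowest C57BL/6J library. For Trp53inp1 the log2 fold change was -2.90 ± 0.79 (SE; edgeR adjusted p = 0.0458), -3.59 without libraries 10 and 11 and 0.64 without 7, 8 and 9, where it was not past the threshold (adjusted p = 0.372). The call was also lost in limma-voom and without any 1 library other than 10 or 11 (edgeR adjusted p up to 0.109).

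**Figure D5:**
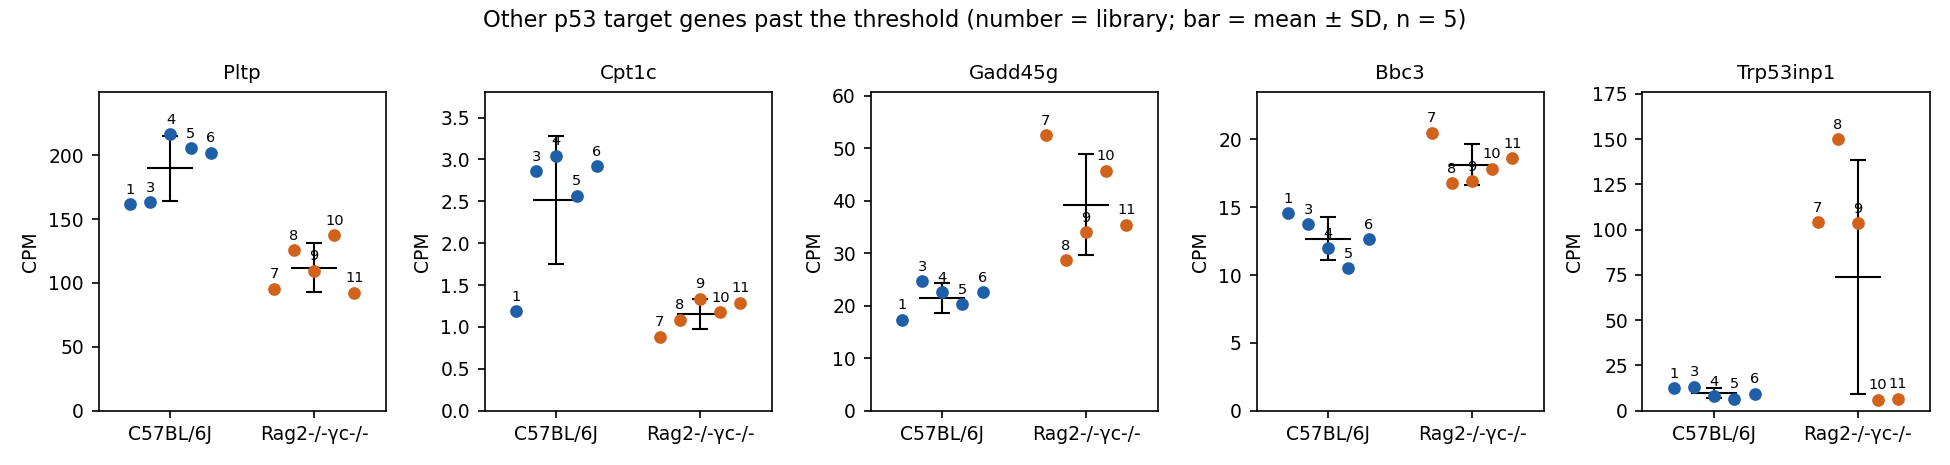
Levels in CPM (vertical axes from 0) of the 5 genes past the threshold among those listed as further p53 targets. Points are libraries with their numbers, C57BL/6J in blue and Rag2-/-γc-/- in orange, and bars show mean ± SD (n = 5). Pltp, Gadd45g and Bbc3 do not overlap between the groups, whereas Trp53inp1 lies between 103 and 150 CPM in Rag2-/-γc-/- libraries 7, 8 and 9 and between 6.11 and 13.3 CPM elsewhere.

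In the other 9 lists edgeR called no gene, and the genes with the smallest p-values in 7 of them are given here. Among 19 tested p53 regulators it was the acetyltransferase gene Crebbp (log2 fold change -0.59 ± 0.18, SE; edgeR adjusted p = 0.078). Among 21 checkpoint genes it was the clamp subunit gene Hus1 (0.46 ± 0.14; edgeR adjusted p = 0.0774), and among 25 of homologous recombination the nuclease gene Mus81 (0.63 ± 0.24; edgeR adjusted p = 0.132). Fancg of 12 further Fanconi genes and Polb of 15 base excision genes had log2 fold changes of 0.48 and 0.44. Nhej1 of 10 end joining genes and Ube2a of 9 translesion genes had 0.58 and 0.24. Values above 0 were found for 23 of the 25 recombination genes (median 0.43), 10 of 12 Fanconi genes (0.35) and 9 of 19 nucleotide excision genes (-0.0018). Among all 13966 tested genes, 7047 were above 0. Unadjusted p-values under 0.05 were found for 4 regulators, 4 checkpoint, 5 recombination, 2 Fanconi, 1 end joining, 3 base excision, 0 mismatch, 5 nucleotide excision and 2 translesion genes. These counts are 0 to 26.3% of each list, against 25.7% of all tested genes. For the 35 tested genes listed as further p53 targets the count was 18 (51.4%). Without libraries 10 and 11, a split chosen from these same values, 20 of the 25 recombination genes were called higher and 1 lower. Among all genes tested in that subset, 19.3% and 17.4% were. Without 7, 8 and 9 no recombination gene was called, against 1.88% of all genes tested.

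Per kilobase of annotated exon, the mean level over all 10 libraries was highest for Ccng1 (51.2 CPM), Btg2 (50.4) and Parp1 (43.8). Trp53 (25.9) and Mdm2 (21.4) followed, then Dcxr (20.4), Msh6 (17.5) and Cdkn1a (17.2). The damage kinase genes were lower on this scale, at 2.24 for Atm, 1.30 for Atr, 2.29 for Chek1 and 2.78 for Chek2. Perp (0.0304), Cdkn2a (0.165), Gdf15 (0.269), Psrc1 (0.42) and Plk2 (0.479) were lowest. The Trp53 gene lies at chr11:69580359-69591873 and Ccng1 at chr11:40748552-40755311 (GRCm38), and all 39 members are annotated as protein-coding in the deposited table.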

How the data were processed

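Poly(A)-selected RNA was sequenced from 10 libraries, per the labels' protocols. The authors deposited expected counts per gene, which were rounded; cutadapt 1.11, STAR 2.5.2a, RSEM 1.2.30, edgeR and build GRCm38 are named per the submitters' processing notes, without roles. Reads that fit several genes are divided in expected counts, and strand use is not given in the sources used here. Columns carried the library titles. In all 20 pairs of same-group libraries, counts differed by more than sampling noise (chi-square per degree of freedom 8.13 to 188), so each was kept as a replicate.

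The main test was edgeR 4.0.16 (R 4.3.3; quasi-likelihood, TMM, filterByExpr with minimum count 10 and total 15), fitted on the whole table, with Benjamini-Hochberg adjustment and a threshold of 0.05. SE is the unshrunken coefficient over the square root of F. The 20 alternatives included DESeq2 1.42.0, limma 3.58.1, other scalings and filters, and leaving out libraries. Summed markers of 9 lists used exact permutation over 252 assignments, adjusted over the lists. The test was checked on simulated data. Exon lengths and overlaps came from GENCODE M21. Members, lists and left-out libraries were chosen with earlier results of these data known. Values in every library are given for members past the threshold and for Trp53, Cdkn1a, Mdm2, Atm and Brca1; from each pathway list up to 4 genes past the threshold, or the 1 with the smallest p, are named. For 2 of these lists the gene is not reported here.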

Additional observations from a re-analysis of the deposited data

Results flagged for a closer look

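In 5 of the 74 member groups of 5 libraries examined, 1 library lay further from the others than Dixon's critical value of 0.71 allows, where chance gives about 1 in 20 groups. Sesn1 was at 11.9 CPM in C57BL/6J library 1 against 5.06 to 5.63 in the other 4, and Parp1 at 289 CPM in the same library against 225 to 239. Atm was at 33.5 CPM in C57BL/6J library 5 against 21.9 to 25.2, and Rad50 at 68.2 CPM there against 53.4 to 57.6. Gdf15 was at 1.62 CPM in Rag2-/-γc-/- library 11 against 0.237 to 0.544 in the other 4. Among summed markers, C57BL/6J library 1 was high for B cell genes (319 CPM against 93.6 to 140) and erythroid genes (146 against 14.9 to 48.8). C57BL/6J library 3 was high for granulocyte genes (27.8 CPM against 3.63 to 9.96) and library 4 for stromal and endothelial genes (2.06 CPM against 1.31 to 1.38).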

How the results depend on the processing

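Calls depended most on the Rag2-/-γc-/- libraries used and on weighting; causes were not tested. Counts are given as higher and lower in C57BL/6J. Over all tested genes they were 464 and 624 in the main test, 803 and 1155 with DESeq2, 3306 and 3217 with quality-weighted limma-voom, 2786 and 2518 without Rag2-/-γc-/- libraries 10 and 11, 148 and 127 without libraries 7, 8 and 9, and 275 to 1076 and 304 to 1323 when 1 library was left out. For p53 members they were 2 and 1 with DESeq2, 2 higher with limma-voom, 6 and 3 with weights, 5 and 3 without 10 and 11, 0 higher without 7, 8 and 9, and 0 to 2 and 0 to 1 with 1 library left out. For checkpoint and repair members DESeq2 called 1 higher, weights gave 14 and 2, leaving out 10 and 11 gave 14 higher, and leaving out 1 library gave 0 to 4 higher. For the other pathway genes they were 10 and 11 with DESeq2, 4 higher with limma-voom, 69 and 32 with weights, 68 and 27 without 10 and 11, 0 higher without 7, 8 and 9, and 1 to 20 and 1 to 16 with 1 library left out. Trp53inp1 changed sign without 7, 8 and 9 (log2 fold change 0.64). Other scalings, filters and robust dispersion kept each of these counts within 1.5 times. Of the single libraries left out, Rag2-/-γc-/- library 10 gave the most calls over all tested genes and C57BL/6J library 6 the fewest. Genes under about 1 CPM rest on few counts. No paired analysis was possible because the groups share no replicate numbers.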
